A study of Homo sapiens with 32 samples.

Results

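The 8 libraries described here came from human RPE-1 cells after 15 h of serum: 4 libraries of ribosome-protected RNA fragments (footprints, Ribo-seq) and 4 libraries of total RNA depleted of ribosomal RNA (RNA-seq). They are 8 of the 32 libraries of the series, which follows the same wild-type cells at 0, 5, 10 and 15 h with 4 biological replicates for each time and assay. RPE-1 is a single immortalised cell line derived from retinal pigment epithelium. All cells, those of the 0 h libraries included, had first been kept without serum for 18 h, and no library came from cells that had not been starved. The footprints of a gene were set against its RNA at the same time, so the comparison is between messages of 1 cell state and not between treatments.

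Ribosome profiling sequences the stretch of mRNA that a ribosome covers, so a gene's footprint count grows with both the amount of its mRNA and the number of ribosomes on each copy. Dividing footprints by RNA gives relative footprints per mRNA, the usual estimate of how well a message is translated. Neither count was scaled by length here. Between genes of different length the ratio therefore compares footprints per RNA count, not ribosomes per mRNA molecule. Messages differ in this value through known elements: a terminal oligopyrimidine tract (5′TOP) at the very start of the mRNA puts ribosomal protein and elongation factor messages under the control of mTOR signalling, upstream open reading frames divert ribosomes from the main frame, and an iron-responsive element lets iron regulatory proteins block ferritin messages. No spike-in was used, so each ratio is relative to the other genes, and a ratio of 0 on the log2 scale is near the typical gene, not 1 ribosome per mRNA.

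Footprint libraries held 4715658 to 9901322 counts and RNA libraries 835855 to 1107097, so RNA counts set the precision of most ratios. The common biological coefficient of variation was 0.0488 among the 4 footprint libraries and 0.18 among the 4 RNA libraries. RNA replicate 2 stood apart from the other 3 RNA libraries. Its correlation with each of them across genes was 0.929 to 0.950, against 0.959 to 0.974 among the other 3. It held the highest RNA value of the 4 for 74.6% of the genes whose footprints were at least 2-fold higher, against 36.9% of all genes tested, and values without it are given beside the results that rest on it. Levels are given in CPM, counts over the summed counts of the genes tested with TMM scaling, and were scaled over 16 libraries where 15 h is set beside 0 h and over the 8 libraries of 15 h elsewhere. Of 5 proliferation genes, all were higher at 15 h than at 0 h in both assays, by different amounts. MKI67, an antigen of dividing cells, averaged 1794 CPM of footprints at 15 h against 126 CPM at 0 h, and 98.5 CPM of RNA at 15 h against 19.3 CPM at 0 h. CCNB1, cyclin B1, averaged 632 CPM of footprints at 15 h against 233 CPM at 0 h, and 510 CPM of RNA at 15 h against 272 CPM at 0 h. In such bulk samples, a change in the number of cells in the cycle and a change in RNA per cell cannot be told apart. The defining markers of pigment epithelium were mostly absent. Of 13 such markers 4 reached 1 CPM in RNA, with MITF at 44.3 CPM of footprints against 22.9 CPM of RNA, and the enzymes RPE65 and TYR were at or near 0. Blood cell markers were at or near 0 except the lysosomal protein CD68, at 90.5 CPM of footprints against 13.3 CPM of RNA.

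The ratio of footprints to RNA differed widely between genes at 15 h. Of 7128 genes with enough RNA counts to be tested, 5129 (72%) had a ratio that differed from the scaling baseline (edgeR quasi-likelihood test, Benjamini-Hochberg adjusted p under 0.05). Footprints were higher than RNA for 2541 genes (35.6%) and lower for 2588 genes (36.3%). A difference of at least 2-fold was found for 1057 genes higher in footprints (14.8%) and 1068 lower (15%), and one of at least 4-fold for 258 and 271 genes. For 4674 genes (65.6%) the 4 footprint and the 4 RNA values did not overlap. The log2 ratio had an SD of 1.11 across genes, with its 10th percentile at -1.30 and its 90th at 1.27, a span of 5.95-fold. Where the dividing line falls depends on the scaling: upper-quartile factors moved the median ratio by -0.25 and gave 1849 genes higher and 3357 lower. Values for gene lists below are therefore medians relative to the median of all genes tested, and single-gene ratios are log2 footprints over RNA with the standard error of the fit, n = 4 libraries in each assay. Counts of list members called are to be read against the 35.6% higher and 36.3% lower among all genes tested.

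**Figure D1:**
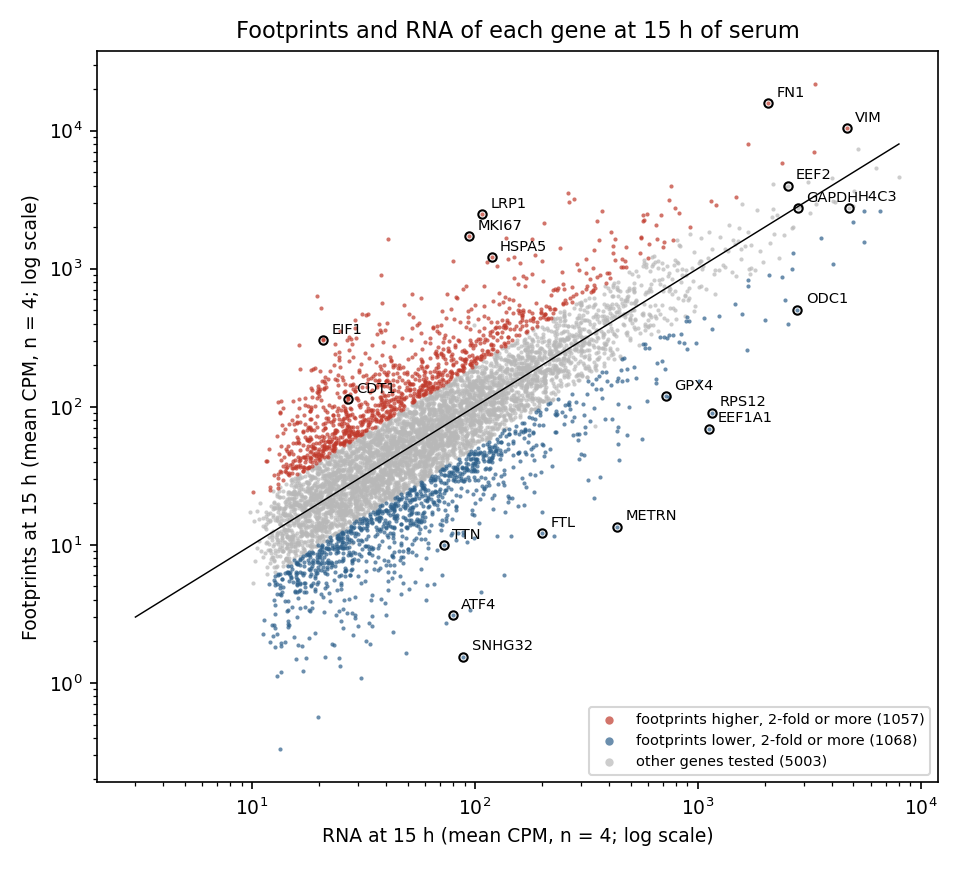
Mean footprint level against mean RNA level at 15 h of serum, in CPM on log axes, 1 point per gene tested (n = 4 libraries in each assay); the diagonal marks equal values. The 1057 genes with footprints at least 2-fold higher lie above the diagonal and the 1068 genes at least 2-fold lower lie below it, and 1 gene with no footprint count is not drawn.

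The 12 highest and 12 lowest ratios were taken among called genes with a mean of at least 20 CPM of RNA and no overlap between footprint and RNA libraries, so their ratios are a description of the ends of the range. Of the 12 highest, 11 are described, and adhesion, secreted and RNA-binding proteins were among them. ZYX, the focal adhesion protein zyxin, had 581, 487, 527 and 488 CPM of footprints against 20.5, 35.7, 14.8 and 10.6 CPM of RNA, a log2 ratio of 4.65 ± 0.22 (adjusted p = 2.04e-09). In HNRNPD, which binds AU-rich elements in mRNA, footprints were 844, 918, 903 and 962 CPM against 32.1, 50.5, 29.7 and 39 CPM in RNA, and the ratio was 4.57 ± 0.14 (adjusted p = 5.99e-11). The endocytic receptor LRP1 had 2660, 2416, 2448 and 2400 CPM of footprints against 64.2, 189, 103 and 77.1 CPM of RNA, with a ratio of 4.52 ± 0.29 (adjusted p = 2.91e-07). The choice required that the assays not overlap. For these 3 genes the gap between them was wider than the spread within either assay.

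MKI67 followed with 1672, 1880, 1615 and 1678 CPM of footprints against 90, 140, 92.4 and 54 CPM of RNA, a ratio of 4.18 ± 0.22 (adjusted p = 9.25e-09). Fatty acid synthase, FASN, had 507, 454, 469 and 456 CPM of footprints against 12.5, 63.5, 27.4 and 21.3 CPM of RNA and a ratio of 3.91 ± 0.32 (adjusted p = 1.76e-06). EIF1, the factor that guards start codon selection, stood out among initiation factors with 270, 319, 322 and 306 CPM of footprints against 12.5, 21.8, 26.2 and 23 CPM of RNA, a ratio of 3.88 ± 0.16 (adjusted p = 3.58e-10). The other 5 genes of this group had ratios between 3.82 and 3.90: FXYD5, a regulator of the sodium pump, TIMP2, an inhibitor of matrix metalloproteinases, ARHGDIA, which holds small GTPases inactive, USP14, a deubiquitinase of the proteasome, and CTSD, the lysosomal protease cathepsin D. RNA replicate 2 was the highest RNA library for 9 of these 11 genes, the exceptions being EIF1 and USP14. Set against RNA replicate 2 alone, the 11 ratios ran from 2.87 for FASN to 4.14 for HNRNPD. Without that library the ratio of FASN was 4.57.

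**Figure D2:**
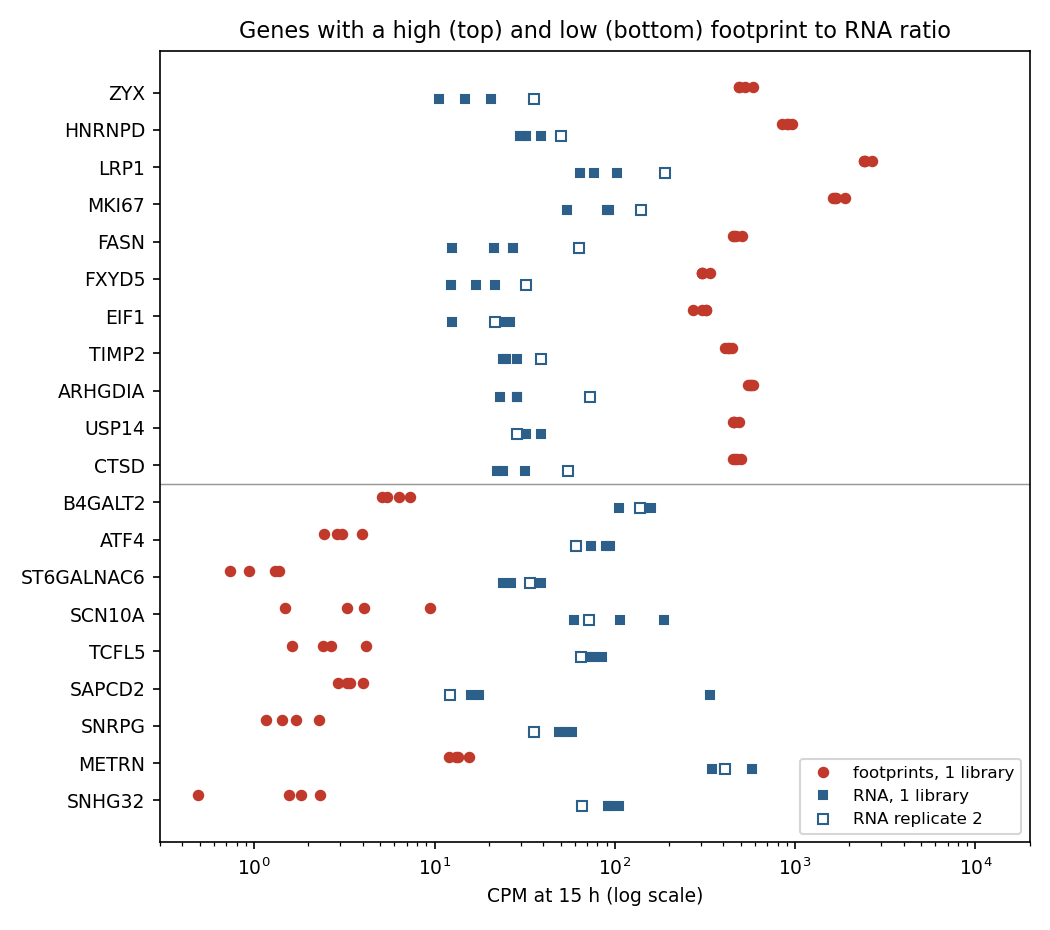
CPM at 15 h on a log axis for 11 genes with a high and 9 genes with a low footprint to RNA ratio; each circle is 1 footprint library and each square 1 RNA library, with RNA replicate 2 as an open square. Circles lie to the right of all squares in the upper block and to the left in the lower block. The choice of genes required this. The open square is the rightmost RNA value for 9 of the 11 upper genes.

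At the other end were messages with RNA and almost no footprints. METRN, which encodes the secreted factor meteorin, had 15.6, 13.1, 13.5 and 12.1 CPM of footprints against 347, 411, 576 and 406 CPM of RNA, a ratio of -5.01 ± 0.17 (adjusted p = 5.99e-11), or 32.2-fold lower. ATF4, the transcription factor of the integrated stress response, had 2.43, 3.08, 3.96 and 2.87 CPM of footprints against 74, 60.9, 93.5 and 89.5 CPM of RNA and a ratio of -4.62 ± 0.18 (adjusted p = 1.85e-10). The Sm core protein message SNRPG had 1.7, 2.28, 1.16 and 1.43 CPM of footprints against 57.9, 35.7, 49 and 53.1 CPM of RNA, a ratio of -4.87 ± 0.22 (adjusted p = 7.80e-10). The choice of genes required that the groups not overlap in any of the 3.

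SNHG32, a host gene of small nucleolar RNAs, had the lowest ratio among the named genes of this group with footprints, -5.67 ± 0.22 (adjusted p = 2.00e-10), from 0.487, 1.83, 2.33 and 1.56 CPM of footprints against 106, 66.1, 92.4 and 91.2 CPM of RNA. SNORD48 and SNORD52 lie inside it, so its RNA count is uncertain. The transcription factor TCFL5 (-4.77 ± 0.20), the sialyltransferase ST6GALNAC6 (-4.72 ± 0.24), the galactosyltransferase B4GALT2 (-4.50 ± 0.15) and the sensory-neuron sodium channel SCN10A (-4.72 ± 0.52) were also among the 12, with adjusted p of 3.42e-10, 1.87e-09, 5.99e-11 and 4.94e-05 in that order. In RefSeq other genes overlap TCFL5 (COL9A3 among them), ST6GALNAC6 (ST6GALNAC4-ST6GALNAC6-AK1) and SCN10A (LOC105377034), and none overlaps B4GALT2. The part of these overlaps in the RNA counts was not tested. ENSG00000267697, which has no symbol in the annotation used, had no footprint count in any of the 4 libraries against 29.4, 27.8, 20.5 and 17.7 CPM of RNA, so it was at least 232-fold lower in footprints when 3 counts over the 4 libraries are taken as the floor. SAPCD2 belongs to the group only through 1 library. Its footprints were 3.41, 4, 2.91 and 3.26 CPM against 335, 12.2, 16 and 17.7 CPM of RNA, and its ratio of -4.84 ± 1.33 (adjusted p = 0.0151) was -2.16 without RNA replicate 1.

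The deposited length, read as coding length, went with the ratio. The median log2 ratio was -0.32 for the 304 genes under 300 nt, -0.24 from 300 to under 600 nt, -0.13 from there to under 1200 nt, 0.033 to under 2400 nt, 0.22 to under 4800 nt and 0.53 for the 381 genes of 4800 nt or more. Among the longest genes 57.2% were called higher in footprints and 19.2% lower, whereas among the shortest 26% were higher and 48% lower. The spread within a class was wider than the shift between classes: in the longest class the 10th percentile was -0.88 and the 90th 2.16. Across the 7128 genes Spearman's rank correlation between length and ratio was 0.195, a description over genes that are not independent.

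The slope of log2 CPM on log2 length was 0.216, 0.217, 0.199 and 0.207 in the footprint libraries, against -0.011, 0.132, 0.0068 and 0.0033 in the RNA libraries. Footprint libraries therefore gained counts with length at nearly the same rate, and 3 of the RNA libraries hardly gained any. Mean slopes were 0.210 ± 0.0087 in footprints and 0.033 ± 0.067 in RNA (SD, n = 4 each), a difference of 0.177 (exact permutation test, 2-sided p = 0.0286, the smallest this design allows). The ratio of footprints to RNA counts was thus 1.13-fold higher for each doubling of length. RNA replicate 2 was the RNA library nearest to the footprints, and without it the difference was 0.210. At 0 h the slope difference was 0.212, so the relation was present in starved cells as well. The deposited length was a multiple of 3 in 96.46% of genes and is read as coding length. For some genes it may cover only part of the coding sequence, which was not tested. Which part of each gene was counted is not given in the sources used here.

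**Figure D3:**
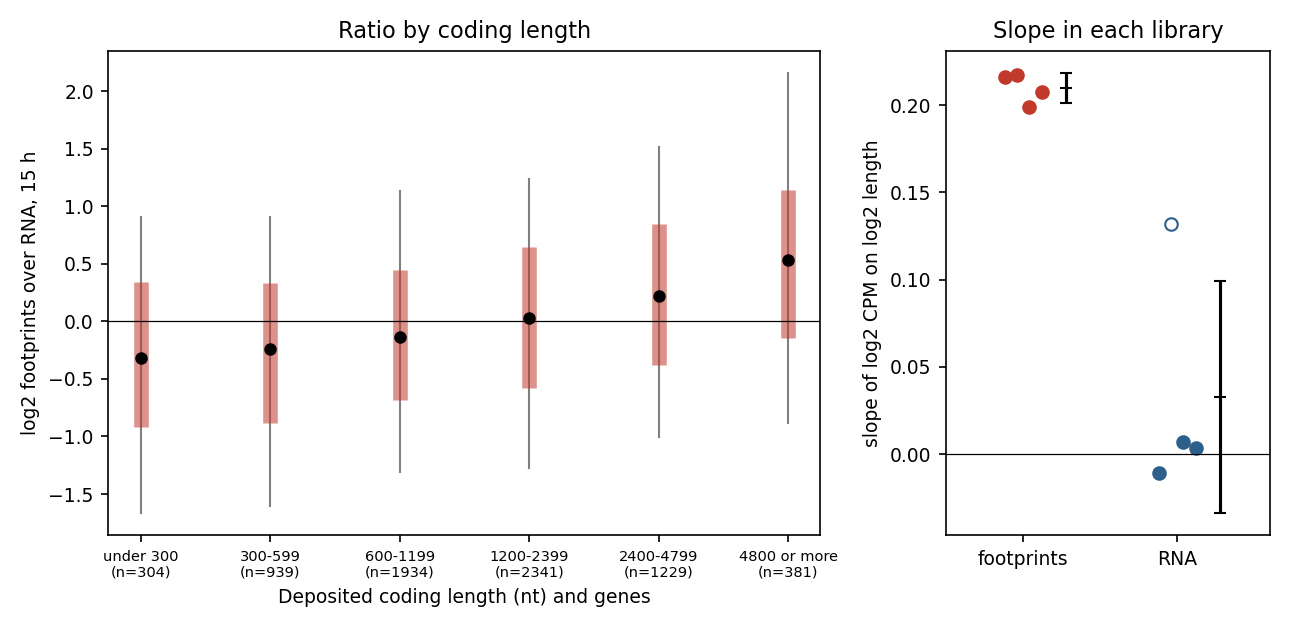
Left, log2 footprints over RNA at 15 h by deposited coding length in nt; points are medians, thick bars the middle 50% of genes and thin lines the 10th to 90th percentile. Right, slope of log2 CPM on log2 length in each library (circles) with mean and SD (n = 4); the median climbs from -0.32 to 0.53, and RNA replicate 2 (open circle, 0.132) lies between the other RNA libraries and the footprints.

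Single long and short genes departed from this trend. TTN, the giant sarcomere protein titin and the longest gene with at least 20 CPM of RNA at 80721 nt, had 18, 6.73, 8.03 and 7.03 CPM of footprints against 49, 78.3, 105 and 58.5 CPM of RNA, a ratio of -2.98 ± 0.34 (adjusted p = 1.89e-05), and its antisense gene TTN-AS1 overlaps it. SYNE1, a nuclear envelope spectrin of 26334 nt, had a ratio of 0.96 ± 0.15 (adjusted p = 5.23e-05), and MACF1, a cytoskeletal crosslinker of 22719 nt, one of -0.023 ± 0.17 (adjusted p = 0.91) with overlapping libraries. MACF1 depended on RNA replicate 2, without which its ratio was 0.25 (adjusted p = 0.00563). The 3 shortest lengths at that RNA level belonged to NDUFA12 (103 nt, ratio -0.28 ± 0.15, adjusted p = 0.119), PTS (108 nt, -1.47 ± 0.18, adjusted p = 5.70e-06) and COX14 (114 nt, -0.84 ± 0.19, adjusted p = 0.00115). The 103 nt of NDUFA12 are not a multiple of 3, so that length may not be a whole coding sequence. Whether the lengths of PTS and COX14 cover a whole coding sequence was not tested.

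Ribosomal protein messages were mostly lower in footprints. Of 60 cytosolic ribosomal protein genes tested, 48 were lower in footprints, 6 higher and 6 not called, with a median of -1.02 relative to all genes. Together the 71 ribosomal protein genes in the table took 1.87% ± 0.031 of footprints and 4.39% ± 0.43 of RNA counts (SD, n = 4 each). Those not tested ranged from RPS10 and RPL22, with no count in either assay, to RPS15, with 565 footprint and 37 RNA counts. The shares cover only the reads counted, and the part of reads lost for such genes was not tested. RPS12, a protein of the small subunit, had 85.9, 94, 85.3 and 98.2 CPM of footprints against 1331, 918, 1149 and 1231 CPM of RNA and a ratio of -3.67 ± 0.13 (adjusted p = 8.40e-11). RPLP0, of the ribosomal stalk, had 165, 146, 151 and 149 CPM against 1036, 926, 1123 and 974 CPM, a ratio of -2.73 ± 0.10 (adjusted p = 9.92e-11). RPS27A, which is made as a fusion with ubiquitin, was lowest of the list at -4.03 ± 0.24 (adjusted p = 6.89e-09).

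A few ribosomal protein messages went the other way. RPL28 had 350, 343, 373 and 352 CPM of footprints against 58.8, 127, 49 and 34.5 CPM of RNA and a ratio of 2.38 ± 0.29 (adjusted p = 3.72e-05). RPL32 had a ratio of 0.42 ± 0.12 (adjusted p = 0.00708), a call that was lost under upper-quartile scaling (adjusted p = 0.269). RPS16 had 426, 376, 385 and 369 CPM of footprints against 32.1, 297, 37.6 and 28.3 CPM of RNA, so that RNA replicate 2 alone kept its ratio of 1.95 ± 0.75 from passing the test (adjusted p = 0.0513). Without that library the ratio was 3.59 (adjusted p = 1.53e-15). All 60 tested genes have between 4 and 95 named pseudogenes in RefSeq. Reads that match several copies can be lost or moved between them, and how such reads were assigned is not given in the sources used here. Across all genes the median ratio was -0.78 for those with 10 or more named pseudogenes, -0.16 for the same class without ribosomal proteins, and 0.02 for genes with none. The part of pseudogenes in the low ribosomal protein ratios was not tested.

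The 18 other genes listed as 5′TOP messages split into 11 lower and 7 higher in footprints, with a median of -0.31 relative to all genes. EEF1A1, the elongation factor that brings aminoacyl-tRNA to the ribosome, had 63.8, 70.4, 64.8 and 78.3 CPM of footprints against 1123, 941, 1186 and 1266 CPM of RNA, a ratio of -4.02 ± 0.12 (adjusted p = 5.99e-11); it has 50 named pseudogenes. EEF1G, a subunit of its exchange factor, had a ratio of -2.65 ± 0.10 (adjusted p = 9.92e-11), and TPT1, the translationally controlled tumour protein, one of -1.39 ± 0.11 (adjusted p = 7.58e-08). EEF2, the translocase of elongation, differed from them with 4219, 3740, 3922 and 4081 CPM of footprints against 1954, 3485, 2596 and 2095 CPM of RNA, a ratio of 0.66 ± 0.15 (adjusted p = 0.00165). The poly(A)-binding protein PABPC1 was highest of the list at 1.92 ± 0.17 (adjusted p = 4.12e-07).

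The first bases of 5 of these messages are shown because the tract sits at the start of the mRNA, and 3 high-ratio genes are set beside them. Each line gives 10 bases before and 20 bases after the start annotated by RefSeq (GRCh38.p14), with the longest unbroken run of C and T in capitals. Where runs tie in length, only the first is in capitals, as in TPT1, ZYX and MKI67.
RPS12 (chr6:132814559-132814588, plus strand): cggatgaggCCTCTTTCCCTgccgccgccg
RPS18 (chr6:33272065-33272094, plus strand): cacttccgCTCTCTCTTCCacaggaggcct
EEF1A1 (chr6:73521013-73521042, minus strand): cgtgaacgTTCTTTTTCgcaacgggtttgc
EEF2 (chr19:3985444-3985473, minus strand): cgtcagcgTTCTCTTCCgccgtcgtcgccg
TPT1 (chr13:45341164-45341193, minus strand): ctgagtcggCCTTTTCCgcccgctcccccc
HNRNPD (chr4:82373972-82374001, minus strand): ccgTTCTTCCgtcggccattttaggtggtc
ZYX (chr7:143381335-143381364, plus strand): ggaccgggacgcagagTCTgcggacccggc
MKI67 (chr10:128126404-128126433, minus strand): CCgggctggaagaaggaagtggagggctga
The runs of the 5 translation genes are 8 to 11 bases long and those of HNRNPD, ZYX and MKI67 are 7, 3 and 2 bases; LRP1, another high-ratio gene, has a run of 7. A run of at least 8 bases was found in 35 of the 38 ribosomal protein genes with a single annotated start and in 12.7% of all 35115 windows. Among the other listed 5′TOP genes it was found in 8 of the 11 with such a start. EEF2 and EEF1A1 have runs of the same length, 9 bases, and ratios at opposite sides of 0. Over all genes with a known start, the median ratio at 15 h was 0.02, 0.0055, -0.043, -0.12 and -0.03 for runs of under 4, 4 to 5, 6 to 7, 8 to 9 and at least 10 bases. At 0 h the same classes had medians of 0.17, 0.13, -0.0059, -0.16 and -0.22, in the order of run length.

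Initiation factors outside the 5′TOP list were spread over a wide range, with 9 of 29 higher and 13 lower and a median of -0.078 relative to all genes. Besides EIF1, the subunit-joining GTPase EIF5B was high, with 356, 372, 372 and 398 CPM of footprints against 17.8, 53.1, 21.7 and 23.9 CPM of RNA and a ratio of 3.66 ± 0.23 (adjusted p = 2.27e-08). The cap-binding protein EIF4E was lowest, with 7.54, 7.08, 4.77 and 6.9 CPM of footprints against 26.7, 15.7, 16 and 18.6 CPM of RNA and a ratio of -1.59 ± 0.23 (adjusted p = 2.93e-05). EIF4G2, an eIF4G-related factor known for its own non-AUG start codon, had 790, 834, 842 and 824 CPM against 1620, 1829, 1583 and 1677 CPM, a ratio of -1.03 ± 0.084 (adjusted p = 1.36e-07). EIF5A, the factor carrying hypusine, had a ratio of 0.56 ± 0.15 (adjusted p = 0.00396), a call lost under upper-quartile scaling (adjusted p = 0.0639). Aminoacyl-tRNA synthetases lay near the middle, with 8 of 20 higher, 5 lower and a median of 0.18, from -0.69 ± 0.084 for KARS1 (lysine, adjusted p = 5.55e-06) to 1.91 ± 0.22 for VARS1 (valine, adjusted p = 7.94e-06).

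Genes known for control by upstream open reading frames had a low median, -1.21 relative to all genes, with 7 of 11 lower, none called higher and 4 not called. The list held 16 genes with a row of counts, and the rest had too few RNA counts to be tested. Over the 15 h libraries these ranged from DDIT3, with 38 footprint and 62 RNA counts, to UCP2, with 287 and 9. Members high in footprints with little RNA are therefore left out. After ATF4 came PPP1R15A, the phosphatase subunit GADD34, with 30.9, 21.3, 25.1 and 27.1 CPM of footprints against 154, 193, 161 and 168 CPM of RNA and a ratio of -2.72 ± 0.12 (adjusted p = 7.30e-10). IFRD1, a transcriptional coregulator, followed with 20.9, 26.1, 22.2 and 22.5 CPM against 85.6, 60.9, 99.2 and 84.2 CPM, a ratio of -1.82 ± 0.14 (adjusted p = 6.55e-08). MDM2, the ubiquitin ligase of p53, had a ratio of -0.094 ± 0.09 (adjusted p = 0.362) and PPP1R15B, the constitutive counterpart of GADD34, one of 0.30 ± 0.14 (adjusted p = 0.0736); both had overlapping libraries. Without RNA replicate 2 PPP1R15B was called, at 0.47 (adjusted p = 0.0045), and the list median was -1.48; it was -1.04 without RNA replicate 1.

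Polyamine genes lay on both sides of the median. ODC1, the first enzyme of polyamine synthesis, had 533, 471, 480 and 538 CPM of footprints against 2774, 2523, 2966 and 2939 CPM of RNA, a ratio of -2.47 ± 0.10 (adjusted p = 1.85e-10). SAT1, which acetylates polyamines for export, had 2.68, 2.62, 3.14 and 3.39 CPM against 24.9, 33.9, 26.2 and 31 CPM, a ratio of -3.28 ± 0.18 (adjusted p = 3.49e-09), and AMD1, which supplies the aminopropyl donor, one of -1.21 ± 0.14 (adjusted p = 3.64e-06). SRM, spermidine synthase, lay on the other side with 128, 107, 117 and 110 CPM of footprints against 13.4, 32.2, 19.4 and 13.3 CPM of RNA and a ratio of 2.55 ± 0.19 (adjusted p = 5.67e-08). The antizyme OAZ2 had a ratio of 0.16 ± 0.17 (adjusted p = 0.4), with RNA replicates 1 and 4 below and RNA replicates 2 and 3 above all footprint libraries. Of the 6 members tested, 4 were lower and 1 higher, with a median of -1.16 relative to all genes.

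Selenoproteins, which read UGA as selenocysteine, were lower for 6 of 12 members tested and higher for 2, with a median of -0.32. The list held 24 genes, and the rest had too few RNA counts to be tested. Over the 15 h libraries these included SELENON, with 1517 footprint and 22 RNA counts, SELENOM, with 156 and 42, and DIO1, with 0 and 1. The counts and median therefore cover only members with enough RNA. GPX4, the peroxidase that protects membrane lipids, had 126, 116, 121 and 113 CPM of footprints against 700, 685, 834 and 653 CPM of RNA, a ratio of -2.59 ± 0.10 (adjusted p = 2.37e-10). SELENOW (-1.93 ± 0.15, adjusted p = 6.20e-08) and GPX1 (-1.60 ± 0.15, adjusted p = 5.51e-07) were also low, whereas SELENOH (0.87 ± 0.11, adjusted p = 1.10e-05) and SELENOF (0.80 ± 0.093, adjusted p = 3.69e-06) were higher in footprints. TXNRD1, thioredoxin reductase, had a ratio of -0.51 ± 0.088 (adjusted p = 1.57e-04). Of the 5 tested genes with iron-responsive elements, 2 were higher and 1 lower. FTH1, also in that list, had 2 footprint counts and 0 RNA counts over the 15 h libraries and was not tested. FTL, the ferritin light chain, had 14.4, 10.7, 13.5 and 10 CPM of footprints against 189, 217, 226 and 172 CPM of RNA, a ratio of -4.06 ± 0.13 (adjusted p = 5.99e-11); it has 20 named pseudogenes, whose part was not tested. TFRC, the transferrin receptor, had 762, 830, 770 and 799 CPM of footprints against 567, 498, 484 and 533 CPM of RNA, a ratio of 0.60 ± 0.089 (adjusted p = 3.45e-05).

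Replication-dependent histones, whose mRNAs end in a stem-loop and carry no poly(A) tail, were lower in footprints for 33 of 44 genes tested and higher for 6, with a median of -0.69. The 58 histone genes in the table took 4.27% ± 0.21 of footprints and 8.65% ± 0.57 of RNA counts (SD, n = 4 each). H4C3 had 2963, 2578, 2919 and 2615 CPM of footprints against 5282, 4373, 4900 and 4553 CPM of RNA, a ratio of -0.79 ± 0.091 (adjusted p = 3.50e-06). H2AC12 had 1185, 1033, 1094 and 1037 CPM against 4132, 3546, 4501 and 4042 CPM, a ratio of -1.90 ± 0.10 (adjusted p = 1.89e-09), and H2AC14 was lowest at -2.30 ± 0.10 (adjusted p = 7.80e-10). The linker histone H1-5 was closer to the middle at -0.48 ± 0.11 (adjusted p = 0.00142). H2B genes were not alike: H2BC11 had a ratio of -1.19 ± 0.10 (adjusted p = 1.64e-07), but H2BC12 had 1072, 861, 972 and 836 CPM of footprints against 348, 386, 428 and 403 CPM of RNA, a ratio of 1.26 ± 0.11 (adjusted p = 2.03e-07), and H2BC14 one of 1.40 ± 0.12 (adjusted p = 2.20e-07). Histone genes are near-identical in sequence, so reads may have been split between them and single-gene ratios are uncertain.

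Extracellular matrix messages had the highest median of the lists, 2.14 relative to all genes: 27 of 29 were higher in footprints, none was called lower and 2 were not called. The 48 matrix genes in the table took 5.20% ± 0.096 of footprints and 1.07% ± 0.33 of RNA counts (SD, n = 4 each). THBS1, thrombospondin-1, gave more footprints than any other gene in the table, 1.92% ± 0.030 of footprints against 0.355% ± 0.12 of RNA counts. FN1, fibronectin, had 15878, 16297, 15972 and 14801 CPM of footprints against 1583, 3490, 1705 and 1503 CPM of RNA, a ratio of 2.93 ± 0.27 (adjusted p = 6.55e-06). LOX, which crosslinks collagen and elastin, had 1821, 1586, 1642 and 1664 CPM against 98, 223, 95.8 and 137 CPM, a ratio of 3.59 ± 0.23 (adjusted p = 1.09e-07). TIMP2 was highest of the list and has been described. COL5A2, a chain of type V collagen, was lowest with 212, 213, 197 and 194 CPM of footprints against 142, 194, 176 and 188 CPM of RNA, a ratio of 0.22 ± 0.11 (adjusted p = 0.0759), and the laminin chain LAMB2 had one of 0.43 ± 0.21 (adjusted p = 0.08) with overlapping libraries. RNA replicate 2 was the highest RNA library for 27 of the 29 genes, and the list median was 2.67 without it; COL5A2 (0.29, adjusted p = 0.00779) and LAMB2 (0.62, adjusted p = 0.0392) were then called higher as well. The median length of these genes was 4440 nt.

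Genes of the endoplasmic reticulum leaned the same way, with 13 of 20 higher, 2 lower and a median of 0.45. HSPA5, the chaperone BiP, had 1176, 1252, 1221 and 1178 CPM of footprints against 64.2, 257, 82.1 and 73.5 CPM of RNA, a ratio of 3.33 ± 0.42 (adjusted p = 1.23e-04) that was 4.06 without RNA replicate 2. SEC61A1, the channel of the translocon, had a ratio of 1.73 ± 0.13 (adjusted p = 6.29e-08). MANF, a secreted stress-induced factor, was on the low side with 156, 168, 166 and 174 CPM of footprints against 302, 227, 310 and 301 CPM of RNA, a ratio of -0.78 ± 0.11 (adjusted p = 2.15e-05). Among 20 cholesterol genes 11 were higher and 3 lower, with a median of 0.74. DHCR7, the last reductase of the pathway, had a ratio of 2.37 ± 0.14 (adjusted p = 6.34e-09), whereas SCAP, which escorts SREBP, had one of -1.34 ± 0.14 (adjusted p = 1.21e-06). The SLC carriers were spread evenly, with 35 of 103 higher and 38 lower, near the shares of all genes tested (35.6% and 36.3%). Among them, the glutamine carrier SLC1A5 had a ratio of 2.26 ± 0.22 (adjusted p = 1.02e-06).

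Mitochondrially encoded messages, which are translated by the mitochondrion's own ribosomes, were higher in footprints for 8 of 9 genes tested, with a median of 1.43 relative to all genes. MT-ND5, a complex I subunit, had 491, 470, 310 and 310 CPM of footprints against 21.4, 38.3, 42.2 and 46.9 CPM of RNA, a ratio of 3.41 ± 0.24 (adjusted p = 1.04e-07), and MT-CYB, the cytochrome b of complex III, had 464, 382, 285 and 271 CPM against 26.7, 21.8, 54.8 and 47.8 CPM, a ratio of 3.24 ± 0.28 (adjusted p = 1.26e-06). MT-CO1, a catalytic subunit of complex IV, had a ratio of 1.37 ± 0.17 (adjusted p = 1.18e-05), and MT-ND1 of complex I one of 1.92 ± 0.30 (adjusted p = 1.28e-04). MT-ND4 was the exception, with 81.5, 67.3, 54.9 and 48.6 CPM of footprints against 40.1, 48.7, 51.3 and 62 CPM of RNA and a ratio of 0.30 ± 0.20 (adjusted p = 0.185). In footprints, replicates 3 and 4 were below replicates 1 and 2 for MT-ND5, MT-CYB and MT-CO1.

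The nuclear-encoded partners of these proteins had list medians a little below that of all genes. Of all genes tested, 36.3% were lower and 35.6% higher. Respiratory chain genes of the nucleus were lower for 27 of 63 and higher for 13, with a median of -0.21, and mitochondrial ribosomal proteins were lower for 30 of 63 and higher for 16, with a median of -0.27. NDUFC2, a complex I subunit, had 206, 238, 236 and 216 CPM of footprints against 105, 93.9, 92.4 and 106 CPM of RNA, a ratio of 1.17 ± 0.10 (adjusted p = 2.20e-07). NDUFB7, of the same complex, had 17.5, 14, 13.7 and 13.2 CPM against 40.1, 35.7, 54.8 and 34.5 CPM, a ratio of -1.50 ± 0.16 (adjusted p = 1.84e-06). MRPS2 was the highest of the mitochondrial ribosomal proteins at 1.71 ± 0.17 (adjusted p = 1.08e-06). The median length of the nuclear respiratory chain genes was 330 nt, in the class of short genes with a low median. Against RNA replicate 2 alone their median log2 ratio was 0.066, compared with -0.30 against the other 3 RNA libraries. For the mitochondrial ribosomal proteins the same medians were -0.024 and -0.33.

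Cell cycle messages had list medians above that of all genes, with members on both sides of it. Of 38 E2F targets of G1/S, 19 were higher, 8 lower and 11 not called, with a median of 0.27. Of 32 G2/M genes, 20 were higher, 2 lower and 10 not called, with a median of 0.46. Among all genes tested, 35.6% were higher and 36.3% lower. TYMS, thymidylate synthase, had 429, 428, 427 and 436 CPM of footprints against 67.7, 125, 53.6 and 74.4 CPM of RNA, a ratio of 2.41 ± 0.19 (adjusted p = 1.08e-07). CDT1, which licenses replication origins, had 130, 102, 113 and 112 CPM against 16, 41.8, 27.4 and 23 CPM, a ratio of 2.07 ± 0.19 (adjusted p = 3.45e-07). E2F1, the transcription factor itself, had 31.1, 26.5, 26.5 and 28.9 CPM of footprints against 130, 186, 180 and 170 CPM of RNA, a ratio of -2.57 ± 0.12 (adjusted p = 1.02e-09). CDC25B, the phosphatase that activates CDK1, had a ratio of 2.55 ± 0.15 (adjusted p = 7.89e-09), the topoisomerase TOP2A one of 0.91 ± 0.091 (adjusted p = 8.49e-07) and BIRC5, survivin, one of -0.70 ± 0.10 (adjusted p = 1.94e-05).

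CCND1, cyclin D1, had a ratio of 0.67 ± 0.15 (adjusted p = 0.0011), and 2 other familiar cycle genes were closer to 0. CCNB1 had 576, 689, 577 and 569 CPM of footprints against 516, 388, 467 and 562 CPM of RNA, a ratio of 0.32 ± 0.12 (adjusted p = 0.0261) that was no longer called without footprint replicate 2 (0.25, adjusted p = 0.0989) or RNA replicate 3 (0.30, adjusted p = 0.0694). PCNA, the sliding clamp, had one of 0.25 ± 0.11 at adjusted p = 0.0498, just inside the threshold, and its range over single libraries left out was 0.16 to 0.30. Its adjusted p was over 0.05 without any 1 of the 4 footprint libraries (0.061 to 0.123) and without RNA replicate 3 (0.085). Immediate-early and feedback genes were higher for 12 of 19 and lower for 1, with a median of 0.45. FOSL1, an AP-1 subunit, had 273, 297, 268 and 289 CPM of footprints against 10.7, 27.8, 16 and 10.6 CPM of RNA, a ratio of 4.11 ± 0.20 (adjusted p = 1.31e-09), and the transcription factor KLF2 one of 2.78 ± 0.15 (adjusted p = 2.71e-09).

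Cytoskeletal genes were higher for 18 of 28 and lower for 6, with a median of 0.67. ACTB, beta-actin, had 3619, 2997, 3376 and 3266 CPM of footprints against 1198, 2237, 1449 and 1067 CPM of RNA, a ratio of 1.16 ± 0.20 (adjusted p = 2.69e-04), and the actin crosslinker ACTN4 one of 2.80 ± 0.34 (adjusted p = 6.17e-05). TUBA1B, an alpha-tubulin with close paralogs, was lower, with 490, 424, 423 and 432 CPM of footprints against 962, 1120, 1145 and 1066 CPM of RNA and a ratio of -1.28 ± 0.094 (adjusted p = 4.85e-08). The intermediate filament VIM had 10746, 9875, 10303 and 10697 CPM of footprints against 4102, 6273, 4471 and 3831 CPM of RNA, a ratio of 1.16 ± 0.13 (adjusted p = 3.28e-06).

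Glycolytic genes were higher for 5 of 13 and lower for 2, with ALDOA at 1.83 ± 0.19 (adjusted p = 3.51e-06), LDHA at 1.81 ± 0.12 (adjusted p = 1.92e-08) and TPI1 at -0.53 ± 0.11 (adjusted p = 5.97e-04). GAPDH had 2938, 2523, 2705 and 2789 CPM of footprints against 2503, 2940, 3109 and 2679 CPM of RNA, which overlapped, and a ratio of -0.036 ± 0.092 (adjusted p = 0.74). Proteasome subunits were higher for 12 of 32 and lower for 10, from -0.97 ± 0.10 for PSMA7 (adjusted p = 1.62e-06) to 2.32 ± 0.11 for PSMB2 (adjusted p = 1.11e-09). The proteasome counts were near the shares of all genes tested, 35.6% higher and 36.3% lower. Splicing regulators that carry poison exons or detained introns were higher for 13 of 30 and lower for 7. HNRNPA2B1 had 1958, 2234, 2119 and 2203 CPM of footprints against 227, 301, 120 and 170 CPM of RNA, a ratio of 3.37 ± 0.23 (adjusted p = 1.41e-07), and the kinase CLK1 one of -1.39 ± 0.12 (adjusted p = 2.67e-07). Of 91 tested ZNF genes, 52 were lower and 10 higher, with a median of -0.58; they ranged from -4.91 ± 0.33 for ZNF124 (adjusted p = 1.91e-08) and -3.51 ± 0.30 for ZNF32 (adjusted p = 1.93e-07) to 2.42 ± 0.17 for ZNF326 (adjusted p = 2.79e-08).

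**Figure D4:**
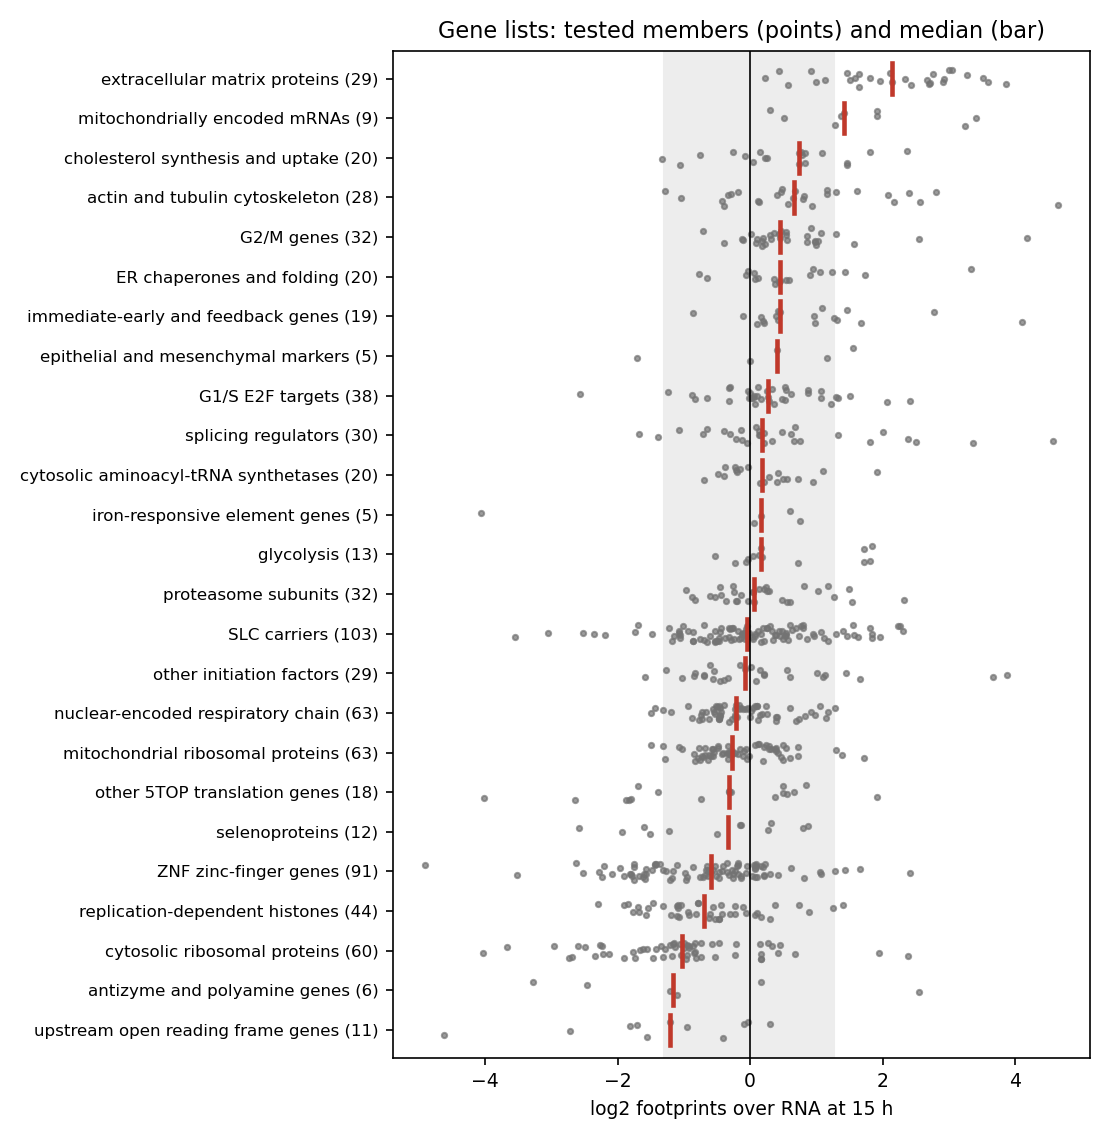
Log2 footprints over RNA at 15 h for the tested members of each gene list with at least 5 of them (points, number tested in brackets), with the list median as a bar; the vertical line is the median of all 7128 genes and the shaded band their 10th to 90th percentile. Extracellular matrix and mitochondrially encoded messages have the highest medians and ribosomal protein, polyamine and upstream open reading frame genes the lowest, and nearly every list has members on both sides of the line.

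Most of the order among messages was already present in starved cells. Of the 1057 genes at least 2-fold higher in footprints at 15 h, 1051 were also tested at 0 h and 1010 of those were called in the same direction there. At least 2-fold at 0 h were 894 of them, and the difference between the times was called for 94 of the 1051. Of the 1068 genes at least 2-fold lower, 1061 were tested at 0 h and 1013 were called in the same direction. At least 2-fold at 0 h were 788 of them, and the difference was called for 199 of the 1061. The difference of the ratio between 15 h and 0 h was tested for 8143 genes in 1 fit over the 16 libraries of both times, and 1093 (13.4%) were called, 480 higher (5.89%) and 613 lower (7.53%). The split depends on the scaling and tool, since RLE factors gave 616 higher and 263 lower, TMM factors over all 32 libraries 725 and 280, and DESeq2 805 and 438. The count of lower genes was 324 without RNA replicate 4 at 15 h, 355 and 347 without footprint replicates 3 and 4 at 0 h and 358 without RNA replicate 2 at 0 h, and it was 867 without RNA replicate 2 at 15 h.

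Of all lists, the 5′TOP messages had the largest median differences between the times. The ratio was higher at 15 h than at 0 h for 61 of 62 ribosomal protein genes, with a median difference of 2.6, and for 17 of 18 other 5′TOP genes, with a median difference of 2.22; at 0 h their median log2 ratios were -3.76 and -2.37. The largest positive differences were those of EEF2 (4.17 ± 0.19, adjusted p = 2.59e-13), SLC25A6 (3.83 ± 0.18, adjusted p = 7.05e-13), the ADP/ATP carrier, RPL13A (3.66 ± 0.20, adjusted p = 6.82e-12), a host of 4 small nucleolar RNA genes, EEF1G (3.55 ± 0.15, adjusted p = 1.58e-13), RPS18 (3.46 ± 0.27, adjusted p = 1.85e-09) and RPS2 (3.41 ± 0.17, adjusted p = 1.05e-12). RPS18 stood at a ratio of -2.60 ± 0.12 at 15 h, still below the typical gene, while EEF2 and SLC25A6 (1.18 ± 0.13) were above it. CDT1 differed by 3.32 ± 0.39 (adjusted p = 1.30e-06), VIM by 2.13 ± 0.16 (adjusted p = 4.80e-10), GAPDH by 1.63 ± 0.12 (adjusted p = 3.68e-10) and MKI67 by 1.51 ± 0.33 (adjusted p = 0.00376).

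Mitochondrially encoded messages were lower at 15 h than at 0 h for 9 of 12 genes, with a median difference of -1.52. MT-CO2 differed by -1.90 ± 0.29 (adjusted p = 9.55e-05), MT-ND4 by -1.80 ± 0.30 (adjusted p = 2.62e-04), MT-ND5 by -1.69 ± 0.35 (adjusted p = 0.00293) and MT-CYB by -1.63 ± 0.41 (adjusted p = 0.0154). The largest negative differences also held CDKN2C, an inhibitor of CDK4 and CDK6 (-1.80 ± 0.27, adjusted p = 4.45e-05), and SAT1 (-1.62 ± 0.22, adjusted p = 1.73e-05); FTL differed by -1.01 ± 0.19 (adjusted p = 0.00101). Of the histone genes 1 of 44 was called, of the matrix genes 1 of 33 and of the upstream open reading frame genes 1 of 13, against 13.4% of all genes. The median difference of these 13 was -0.21, against -0.13 for all genes. In the fit over all 32 libraries, the median of the 11 tested at 15 h was -0.68 at 0 h and -1.21 at 15 h, relative to all genes. For the matrix genes the median log2 ratio was 2.40 at 0 h.

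**Figure D5:**
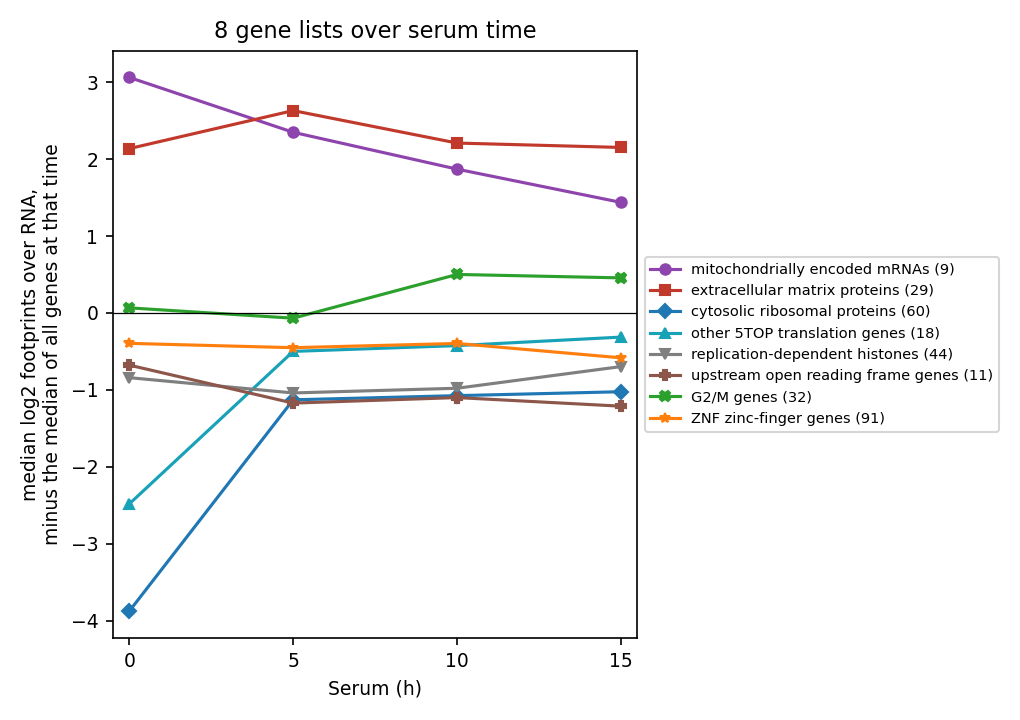
Median log2 footprints over RNA of 8 gene lists at 0, 5, 10 and 15 h of serum, each relative to the median of all genes at that time, from 1 fit over all 32 libraries; the number of genes is in brackets. Ribosomal protein genes lie at -3.88 at 0 h and between -1.13 and -1.02 at the later times, mitochondrially encoded messages are at 3.06, 2.35, 1.87 and 1.44 in time order, and matrix genes stay between 2.14 and 2.63.

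The genes tested were those with enough RNA counts, whatever their footprints, which leaves out well-occupied messages with little RNA. A further 2946 genes passed the same count filter in footprints but not in RNA. The most abundant of them in footprints were EHD2, an endocytic ATPase, at 462 ± 32.3 CPM of footprints with 54 RNA counts over the 4 libraries, and the lysosomal peptidase TPP1, at 282 ± 16.5 CPM with 36 RNA counts (SD, n = 4). In the other direction 25 genes passed in RNA and not in footprints. The 1057 and 1068 genes above are therefore counts among genes with measurable RNA, not among all translated messages.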

How the data were processed

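Human RPE-1 cells were profiled by Ribo-seq and RNA-seq, 4 libraries of each at 15 h of serum. The deposited values are raw counts per gene, made by the authors. STAR 2.5.4a, featureCounts 1.5.1 and GRCh38 are named in the submitters' processing notes. Per the labels' protocols, ribosomal RNA was depleted and both assays used a small RNA library kit. The counting region, strand setting, and treatment of shared reads and of molecular identifiers are not stated there. The Length column was read from the file header; the other deposited columns are counts.

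Counts were fitted with edgeR 4.0.16 (R 4.3.3, limma 3.58.1): genes kept by filterByExpr (minimum count 10) in the 4 RNA libraries, TMM factors over both assays, robust quasi-likelihood F-test of footprints against RNA, Benjamini-Hochberg adjustment over all genes tested, and a threshold of 0.05 on adjusted p. The standard error is the log2 ratio divided by the square root of F. The 15 h minus 0 h difference is the interaction term over 16 libraries, and ratios at 4 times came from 1 fit of 32. Named genes were the 12 highest and 12 lowest called ratios with at least 20 CPM of RNA and no overlap, the 2 highest and lowest members of each list, fixed genes, the 3 longest and shortest genes, and the 6 largest differences in each direction. THBS1, EHD2 and TPP1 were named after their values were seen. A few results that the rule selects are not reported here. Members and lists were chosen with earlier results of these data known. Length slopes are regressions of log2 CPM (prior count 2) on log2 length in each library.

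On simulated counts, 62.7% of 1.5-fold and 100% of 2-fold changes were recovered for the 15 h comparison, with 12 unchanged genes called among 7128. For the 15 h minus 0 h difference, 16.4% of 1.5-fold and 70.1% of 2-fold changes were recovered. The simulation gave both assays the same variation, unlike the 0.0488 of footprints and 0.18 of RNA at 15 h. It also changed few genes, so these rates may not hold for the data. Alternatives were other scalings, filters and fits, DESeq2 1.42.0 and each library left out. Count totals limit precision through counting error, and repeated reads of 1 molecule were not removed here.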

Additional observations from a re-analysis of the deposited data

Results flagged for a closer look

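In 21 of 240 groups of 4 libraries, 1 library lay farther from the others than Dixon's 95% limit allows, and chance flags about 1 in 20 groups. RNA replicate 2 was that library in 11 of the 21. It was the highest RNA library for the length slope (0.132) and for ARHGDIA (73.1 CPM), RPS16 (297 CPM), PABPC1 (176 CPM), FN1 (3490 CPM), HSPA5 (257 CPM), LDHA (538 CPM), SYNE1 (221 CPM) and MACF1 (467 CPM). It was the lowest for MANF (227 CPM) and PTS (16.5 CPM). Other RNA libraries stood high for SAPCD2 (replicate 1, 335 CPM) and EEF1G (replicate 3, 819 CPM).

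Among the footprint libraries, replicate 1 was highest for FXYD5 (336 CPM), TUBA1B (490 CPM) and TTN (18.0 CPM) and lowest for RPL32 (477 CPM) and ZNF32 (1.22 CPM). Footprint replicate 2 was highest for CCNB1 (689 CPM) and CDKN2C (8.10 CPM), and footprint replicate 4 for USP14 (490 CPM).

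The footprint to RNA ratio differed between 15 h and 0 h for 1093 genes by the interaction test of edgeR. Among the genes named, the log2 difference was positive for EEF2 (4.17), SLC25A6 (3.83), RPL13A (3.66), EEF1G (3.55), RPS18 (3.46), RPS2 (3.41), CDT1 (3.32), VIM (2.13), GAPDH (1.63) and MKI67 (1.51). It was negative for MT-CO2 (-1.90), MT-ND4 (-1.80), CDKN2C (-1.80), MT-ND5 (-1.69), MT-CYB (-1.63), SAT1 (-1.62) and FTL (-1.01).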

How the results depend on the processing

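Counts of called genes at 15 h followed the filter. With no filter beyond a count above 0, 4074 genes were higher, and 2313 and 2076 were at least 2-fold higher and lower. With at least 50 counts in each RNA library, 2409 genes were called, 1188 higher and 1221 lower, and 383 and 452 were at least 2-fold higher and lower; fewer genes were tested in that setting. A test against a 2-fold change called 667 genes higher. The SD of the log2 ratio was 1.67 without a filter and 1.01 at 50 counts, and its 10th and 90th percentiles lay -2.33 and 1.73 from the median without a filter. Leaving out 1 library at a time, 4835 to 5448 genes were called and the SD was 1.10 to 1.18. The length slope difference was 0.165 to 0.212 with 1 library left out. Without any 1 footprint library the exact permutation p was 0.0571, at 3 libraries against 4, where the smallest possible p is 0.0286.

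Same-numbered footprint and RNA libraries did not deviate together (correlations of -0.311, -0.138, 0.000821 and 0.0836), so the replicate number was not taken as a pairing. With it as a replicate block 4772 genes were called, 1076 and 1062 at least 2-fold higher and lower, and 968 for the difference between 15 h and 0 h. In that block the length slope difference was 0.177 with an exact p of 0.125, the smallest that 4 pairs allow.

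For the difference between 15 h and 0 h, RLE factors left 263 genes lower, all 32 libraries in 1 fit gave 725 higher and 280 lower, a filter in both assays left 329 lower, and DESeq2 called 805 higher. With 1 library left out, 758 to 1535 genes were called, 402 to 668 higher and 324 to 867 lower. The cause was not tested for these. Of the 25 lists with at least 5 genes tested, 4 had a median that crossed 0 in some setting: proteasome subunits (-0.0046 without RNA replicate 2), SLC carriers (0.0062 without footprint replicate 2 and 0.15 with no filter), iron-responsive element genes (-1.67 at 50 counts) and epithelial and mesenchymal markers (-1.36 with no filter).

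Single genes at 15 h kept direction and side of the threshold in 1802 of 1852 alternative values. The 13 that turned sign concern ratios near 0: OAZ2 (-0.094 with upper-quartile factors, -0.044 without RNA replicate 1, where single libraries left out gave up to 0.30), COL5A2 (-0.030) and PCNA (-0.0078) with upper-quartile factors, GAPDH (0.034 with no filter, 0.022 at 50 counts, 0.0017 without footprint replicate 2, 0.012 without RNA replicate 3, and down to -0.088 with another library left out) and MACF1 (0.054 with no filter, 0.031 at 50 counts, 0.025 in the replicate block, 0.021 without footprint replicate 4, 0.25 without RNA replicate 2, and down to -0.12 with another library left out). RNA totals of at most 1107097 counts limit genes with little RNA. Values of RNA replicate 2 set against the other RNA libraries were an alternative chosen after seeing the data.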

Other observations

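Several lists held a member far from its own group. SLC29A1, a nucleoside transporter, had 327, 297, 316 and 329 CPM of footprints against 41, 100, 43.4 and 68.2 CPM of RNA, a log2 ratio of 2.31 ± 0.21 (edgeR, adjusted p = 6.40e-07), and was the highest of the SLC carriers. SLC25A10, the dicarboxylate carrier of mitochondria, was the lowest, with 4.38, 2.63, 2.45 and 2.74 CPM of footprints against 26.7, 34.8, 52.5 and 24.8 CPM of RNA and a ratio of -3.55 ± 0.26 (adjusted p = 4.70e-08). For both carriers the libraries of the 2 assays did not overlap. Among splicing regulators HNRNPC, a protein that binds nascent transcripts, was the lowest at -1.68 ± 0.11 (adjusted p = 1.46e-08), although HNRNPD and HNRNPA2B1 stood at the other end. Among keratins KRT7 had a ratio of -1.71 ± 0.15 (adjusted p = 2.51e-07), while KRT8 had one of 0.00061 and KRT18 one of 0.40. CDH2, N-cadherin, had a ratio of 1.56 ± 0.11 (adjusted p = 2.94e-08).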
